A study of Homo sapiens with 6 samples.

Results

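The genes that present peptides on MHC class I molecules were followed in SY5Y cells, a human neuroblastoma line, with and without overexpression of DLX5, which encodes a DNA-binding homeobox protein. The members are the 9 rows of the deposited gene tables, of 58735 rows in all, whose gene name is HLA-B, HLA-C, HLA-E, HLA-F, B2M, TAP1, TAP2, TAPBP or NLRC5. The groups were 3 libraries of SY5Y cells labelled with the genotype DLX5 overexpression and 3 of SY5Y cells labelled Control, all grown in DMEM/F12 with 10% fetal bovine serum. The labels name neither the vector or promoter that carries DLX5 nor what the controls received, and they do not say whether the lines are clones or pools. They do not say either whether the replicates came from separate cultures, and every p-value here therefore rests on library-to-library spread that may be technical.

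Nearly every nucleated cell can show fragments of its own proteins to CD8+ T cells on MHC class I molecules. A heavy chain, encoded by an HLA gene, pairs with the light chain beta-2-microglobulin, and the pair is loaded in the endoplasmic reticulum with peptides that the proteasome makes and the transporter TAP brings in. Transcription of the pathway is driven by the coactivator NLRC5, by NF-kappaB and by interferon-induced factors. Neuroblastoma cells are known for low MHC class I levels, and interferon gamma is known to raise them.

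Libraries held between 14644077 and 16886026 counts. DLX5 stood at 1582, 1569 and 1677 CPM (counts scaled to library size with TMM factors) in the DLX5 overexpression libraries, against 12.4, 12.3 and 13.8 CPM in the controls, so each library matched its label. Over all genes, 10121 of 17269 tested changed (edgeR quasi-likelihood test, Benjamini-Hochberg adjusted p under 0.05), which is 58.6%, 5152 of them higher and 4969 lower. HAND2 and DBH, markers of the sympathetic neuroblasts that the line stands for, were detected in both groups and fell, by log2 fold changes of -0.93 ± 0.06 and -1.98 ± 0.06 (± SE; edgeR, adjusted p = 6.69e-13 and 3.92e-20).

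All 9 members passed the filter on low counts and all 9 rose with DLX5, where 29.8% of the tested genes were called higher. At least a 2-fold rise was called for 8 of the 9, against 11.3% of the tested genes. The log2 fold changes ran from 0.50 for TAP2 to 3.97 for HLA-F with a median of 2.11, beside a median of -0.00 over all tested genes. In all 9 the lowest DLX5 overexpression library lay above the highest control, which was so for 31.7% of the tested genes, while 62.5% did not overlap in either direction. In bulk RNA, a change in the share of cells that use a gene and a change in RNA per cell cannot be told apart.

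**Figure D1:**
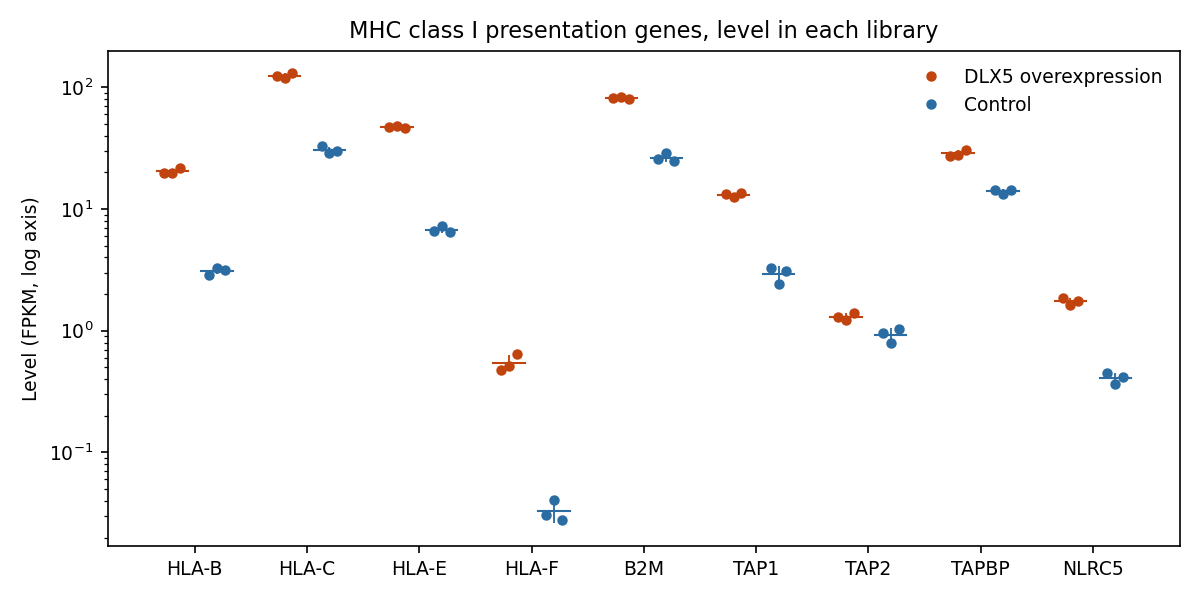
Level of each member in each library, in FPKM on a log axis, with DLX5 overexpression left of Control; points are libraries, horizontal lines the means and vertical lines the SD (n = 3). The groups are apart for all 9 genes, with TAP2 at 1.31 against 0.930 FPKM as the closest pair and HLA-F, the lowest gene, at 0.545 against 0.0332 FPKM.

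The heavy chains came up by different amounts. HLA-C (ENSG00000204525, chromosome 6, 31268749 to 31272130, minus strand, GRCh38), a classical heavy chain that presents peptides to T cells and is read by killer cell receptors, had the highest FPKM of the members. It had 316, 298 and 330 CPM in the DLX5 overexpression libraries, against 82.7, 73.7 and 75.3 CPM in the controls. The lowest DLX5 overexpression library was well over the highest control, a log2 fold change of 2.03 ± 0.06 (± SE, 4.08-fold; edgeR, adjusted p = 1.03e-19).

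HLA-B (ENSG00000234745, chromosome 6, 31269491 to 31357188, minus strand, an annotated span that runs into HLA-C) is the most polymorphic of the classical heavy chains. It stood at 60.6, 60.6 and 66.8 CPM with DLX5, against 8.84, 10.1 and 9.68 CPM in control. Libraries of a group lay close together and the groups were far apart, with a log2 fold change of 2.71 ± 0.09 (6.56-fold; edgeR, adjusted p = 1.71e-19). Within a library, the ratio of HLA-B to HLA-C in FPKM was 0.157, 0.167 and 0.166 with DLX5, against 0.0879, 0.112 and 0.106 in control. HLA-B thus gained on HLA-C by a factor of 1.61 and the groups did not overlap (two-sided exact permutation test, p = 0.1, the smallest that 3 libraries against 3 can give).

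HLA-E (ENSG00000204592, chromosome 6, 30489467 to 30494205, plus strand) is a nonclassical heavy chain that mainly presents leader peptides of other class I chains and engages an inhibitory receptor of natural killer cells. Its level was 143, 144 and 139.9 CPM in DLX5 overexpression libraries and 19.6, 21.7 and 19.6 CPM in controls. That is a log2 fold change of 2.81 ± 0.07 (7.0-fold; edgeR, adjusted p = 6.13e-22), with the smallest adjusted p of the members.

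HLA-F (ENSG00000204642, chromosome 6, 29722775 to 29738528, plus strand), another nonclassical heavy chain, had few counts in control. It took 35, 35 and 46 counts in the DLX5 overexpression libraries, against 2, 3 and 2 counts in the controls. The fitted log2 fold change of 3.97 ± 0.42 (edgeR, adjusted p = 8.34e-09) rests on 7 control counts, and the ratio of scaled counts was 16.4 with a 95% exact binomial interval of 7.71 to 41.7 that covers counting error only. On log2(FPKM + 1) values the difference shrank to 0.58, since the level in both groups is below that pseudocount.

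Of the summed FPKM of these 4 heavy chain genes, HLA-C made up 64.6% ± 1.08 with DLX5 and 75.5% ± 2.08 in control (SD, n = 3). HLA-E took 24.6% ± 1.22 with DLX5 and 16.7% ± 1.37 in control, and HLA-B 10.6% ± 0.333 and 7.68% ± 0.757. The pool therefore held relatively more HLA-E and HLA-B and less HLA-C in DLX5 overexpression libraries, though all of them rose.

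B2M (ENSG00000166710, chromosome 15, 44711487 to 44718877, plus strand) encodes the light chain that class I heavy chains generally need to leave the endoplasmic reticulum. Its level was 502, 509 and 493 CPM with DLX5, against 157, 177 and 152 CPM in control. The log2 fold change was 1.63 ± 0.06 (3.10-fold; edgeR, adjusted p = 8.32e-18). Heavy chains outran it. The ratio of HLA-B, HLA-C, HLA-E and HLA-F together to B2M was 2.35, 2.24 and 2.48 in DLX5 overexpression libraries and 1.65, 1.37 and 1.59 in controls, a factor of 1.54 with no overlap (two-sided exact permutation test, p = 0.1). FPKM divides by all annotated exonic bases, 6079 for B2M, so this ratio compares libraries and is no ratio of molecules.

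TAP1 and TAP2 are the subunits of the peptide transporter, which works only as the pair, and they moved unequally. TAP1 (ENSG00000168394, chromosome 6, 32845209 to 32853978, minus strand) had 64.4, 60.6 and 65.5 CPM with DLX5, against 15.9, 11.7 and 14.9 CPM in control. It rose by a log2 fold change of 2.17 ± 0.09 (4.50-fold; edgeR, adjusted p = 5.30e-17).

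TAP2 (ENSG00000204267, chromosome 6, 32821833 to 32838780, minus strand) had 8.42, 7.81 and 9.07 CPM with DLX5, against 6.16, 5.16 and 6.64 CPM in control. The groups were apart by little, and the log2 fold change was 0.50 ± 0.15 (1.41-fold; edgeR, adjusted p = 0.00499). This call was lost on log2(FPKM + 1) values with no filter on low levels (log2 difference 0.26, adjusted p = 0.103 by limma). The ratio of TAP1 to TAP2 in FPKM was 10.2, 10.3 and 9.60 with DLX5, against 3.43, 3.02 and 2.98 in control, a factor of 3.20 with no overlap (two-sided exact permutation test, p = 0.1). An annotated same-strand gene, AL669918.1, covers 32.3% of the exonic bases of TAP2 and had 0 counts in all libraries, and the sources used here do not say how reads on those bases were counted.

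TAPBP (ENSG00000231925, chromosome 6, 33299694 to 33314387, minus strand) encodes tapasin, which holds empty class I molecules at the transporter and edits their peptides. It had 139.9, 142 and 157 CPM with DLX5, against 73.6, 68.4 and 72.8 CPM in control, a log2 fold change of 1.03 ± 0.06 (2.04-fold; edgeR, adjusted p = 1.98e-13). The rise was about as steady over libraries as that of B2M and smaller.

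NLRC5 (ENSG00000140853, chromosome 16, 56989485 to 57083531, plus strand) encodes the coactivator that binds the class I promoters through the RFX, CREB and NF-Y factors. It stood at 23.2, 20.4 and 22.2 CPM with DLX5, against 5.56, 4.56 and 5.18 CPM in control. No DLX5 overexpression library came near the controls, and the log2 fold change was 2.11 ± 0.12 (4.30-fold; edgeR, adjusted p = 3.60e-14). As with HLA-F, the log2(FPKM + 1) scale, on which NLRC5 is near the pseudocount, gave a smaller difference of 0.97.

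**Figure D2:**
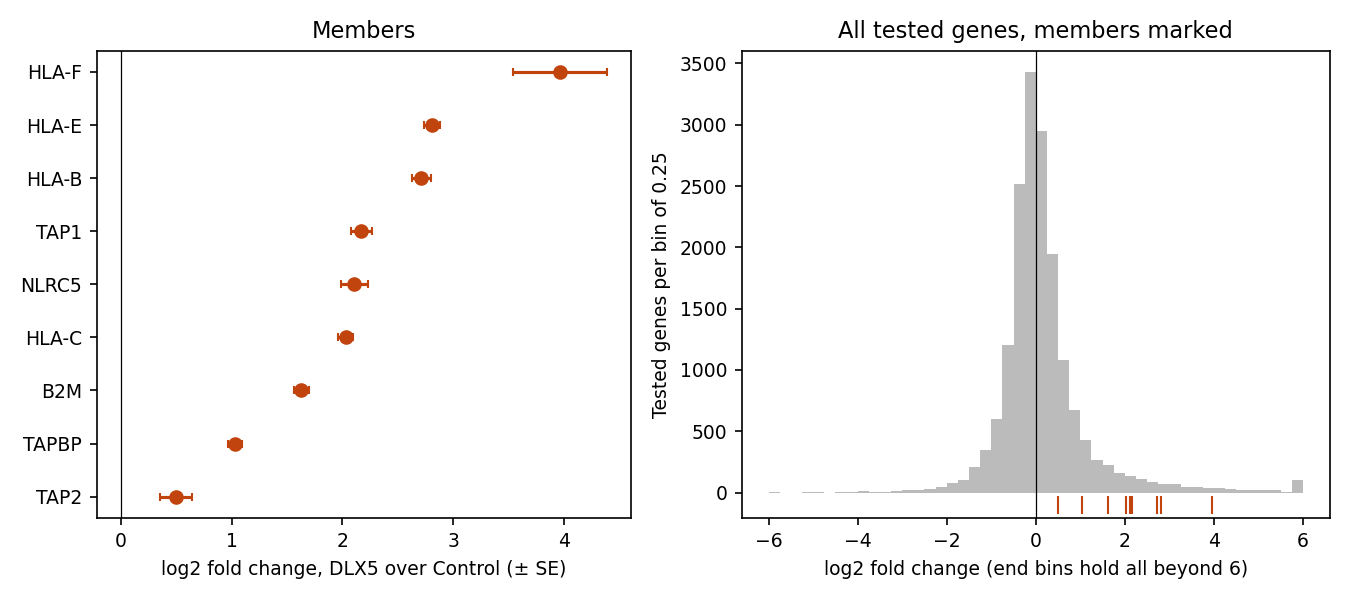
Left, log2 fold change of each member, DLX5 overexpression over Control, with its SE; right, histogram of the log2 fold changes of all 17269 tested genes in bins of 0.25, with the 9 members as ticks under it and values beyond 6 gathered in the end bins. The members lie between 0.50 and 3.97, all right of the peak of the histogram near 0.

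Per length, the order of the members was HLA-C, B2M, HLA-E, TAPBP, HLA-B, TAP1, NLRC5, TAP2 and HLA-F in the DLX5 overexpression libraries, at 124, 81.8, 47.4, 28.7, 20.4, 13.1, 1.75, 1.31 and 0.545 FPKM. No neighbours in that order overlapped over their 3 libraries. In control the order was HLA-C, B2M, TAPBP, HLA-E, HLA-B, TAP1, TAP2, NLRC5 and HLA-F, at 30.6, 26.4, 14.1, 6.77, 3.10, 2.92, 0.930, 0.408 and 0.0332 FPKM. There HLA-B and TAP1 overlapped, and no other neighbours did. HLA-E thus stood above TAPBP with DLX5 and under it in control, and NLRC5 above TAP2 with DLX5 and under it in control.

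Heavy chain genes are close paralogs, and the reads counted for HLA-B and HLA-C could in principle be exchanged. The annotated exons of HLA-B and HLA-C share 35 bases. Of the distinct stretches of 100 bases in the annotated transcripts, 0.126% of those of HLA-C, 0.491% of those of HLA-E and 0% of those of B2M, TAPBP and NLRC5 occur in a transcript of another gene. For HLA-B this share was 12.9%, for HLA-F 15.3%, for TAP1 7.26% and for TAP2 30.3%, mostly with annotated genes that overlap them. Of those partners PSMB8-AS1, opposite TAP1, held 69 counts with DLX5 and 18 in control, and the others held at most 1 count in a group. These shares are for the reference alleles. The alleles of SY5Y cells can differ from them at many bases, and reads lost for that reason were not measured.

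The windows from 250 bases before to 50 bases after the transcription start, as RefSeq gives them on GRCh38.p14, were available for 7 of the members (HLA-B, HLA-C, HLA-F, B2M, TAP1, TAP2 and TAPBP). HLA-B and HLA-C are shown as heavy chains with the conserved class I promoter, and TAP2 as the member that moved least. B2M and TAP1 are shown as members whose windows hold the strict response element letters defined next. Looser spellings of that element were not searched for, so the HLA-B and HLA-C windows are not shown to lack one. Capitals mark, on either strand, a strict spelling of the interferon-stimulated response element (GAAA, any 2 bases, GAAA). They also mark CCAAT (the NF-Y or Y box) and TGACG (a core of CREB sites, as in the X box). The NF-kappaB letters (GGG, any 3 bases, T, any 1 base, CC) are marked too. So are TAATTG and TAATTA (homeobox cores of the kind DLX proteins bind). A run of capitals can hold matches that overlap or abut.
HLA-B, chr6:31357130-31357429, minus strand: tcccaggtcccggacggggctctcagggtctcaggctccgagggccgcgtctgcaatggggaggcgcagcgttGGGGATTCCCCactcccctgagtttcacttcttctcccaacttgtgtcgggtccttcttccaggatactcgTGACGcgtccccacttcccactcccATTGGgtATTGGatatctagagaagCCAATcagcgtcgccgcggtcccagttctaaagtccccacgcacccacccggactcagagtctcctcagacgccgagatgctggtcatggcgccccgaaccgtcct
HLA-C, chr6:31272043-31272342, minus strand: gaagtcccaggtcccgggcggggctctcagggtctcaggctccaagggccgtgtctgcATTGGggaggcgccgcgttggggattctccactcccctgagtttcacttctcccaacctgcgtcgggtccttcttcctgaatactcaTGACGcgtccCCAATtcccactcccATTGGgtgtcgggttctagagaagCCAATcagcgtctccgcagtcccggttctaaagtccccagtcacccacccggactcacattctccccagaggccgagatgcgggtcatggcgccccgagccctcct
B2M, chr15:44711267-44711566, plus strand: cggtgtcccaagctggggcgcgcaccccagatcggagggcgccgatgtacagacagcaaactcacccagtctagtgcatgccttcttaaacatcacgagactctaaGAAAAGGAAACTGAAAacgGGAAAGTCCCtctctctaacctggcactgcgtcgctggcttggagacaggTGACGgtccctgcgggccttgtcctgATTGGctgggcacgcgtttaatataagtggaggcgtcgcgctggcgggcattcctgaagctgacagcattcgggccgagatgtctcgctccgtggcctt
TAP1, chr6:32853655-32853954, minus strand: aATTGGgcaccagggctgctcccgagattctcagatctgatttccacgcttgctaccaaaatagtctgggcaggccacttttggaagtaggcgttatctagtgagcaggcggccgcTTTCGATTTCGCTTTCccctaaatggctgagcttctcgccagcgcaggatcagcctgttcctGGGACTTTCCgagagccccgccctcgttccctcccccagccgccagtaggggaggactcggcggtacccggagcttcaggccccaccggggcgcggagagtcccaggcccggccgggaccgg
TAP2, chr6:32838690-32838989, minus strand: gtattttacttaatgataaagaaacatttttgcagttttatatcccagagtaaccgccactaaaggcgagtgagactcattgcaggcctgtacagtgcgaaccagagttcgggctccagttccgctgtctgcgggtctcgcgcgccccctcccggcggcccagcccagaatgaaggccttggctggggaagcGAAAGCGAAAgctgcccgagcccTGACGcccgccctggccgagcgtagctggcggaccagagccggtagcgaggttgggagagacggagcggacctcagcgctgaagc

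In the window of HLA-B, TGACG began 106 bases and a reversed CCAAT 81 bases before the start, and in HLA-C these letters began at 105 and 80 bases. Both windows held a forward CCAAT at 56 bases, and HLA-B also held the NF-kappaB letters, from 177 bases on. B2M held the response element letters at 144 and 138 bases, which overlap, then NF-kappaB letters at 125, TGACG at 75 and a reversed CCAAT at 49 bases. TAP1 held overlapping response element letters at 134 and 128 bases and the NF-kappaB letters at 72 bases.

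Over the 7 members, the strict response element letters were found in 5 (HLA-F, B2M, TAP1, TAP2 and TAPBP), where 3.57% of all 35116 windows of this length hold them. Windows without these letters, as in HLA-B and HLA-C, can hold looser spellings, which were not counted. CCAAT was found in 5 (34.6% of all windows), TGACG in 4 (24.6%) and the NF-kappaB letters in 4 (21.5%). TAATTG was found in a second, downstream start window of TAP1 only (7.38% of all windows) and TAATTA in none (4.84%). TAP2, with the smallest rise, held both the response element letters, 58 bases before the start, and TGACG. A match is a description of the letters and shows no binding.

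Peptides for class I molecules come largely from the proteasome, whose immune form carries PSMB8, PSMB9 and PSMB10 in place of PSMB5, PSMB6 and PSMB7. Of the 6 immunoproteasome and activator genes 3 rose and 0 fell, by a median log2 fold change of 0.52. Beside this list and those that follow, 29.8% of all tested genes were called higher and 28.8% lower. PSMB9, which lies next to TAP1, had 28.6 ± 1.05 CPM with DLX5 and 3.42 ± 0.722 CPM in control (SD, n = 3), a log2 fold change of 3.07 ± 0.13, and PSMB8 rose by 1.95 ± 0.10. The activator subunit PSME1 rose by 0.65 ± 0.06. PSMB10, PSME2 and the assembly factor POMP did not pass, with log2 fold changes of 0.39 ± 0.21, 0.14 ± 0.07 and -0.12 ± 0.07. PSMB8 and PSMB9 share 139 exonic bases on opposite strands, and whether the counting used strand is not known here.

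The standard subunits went the other way or did not pass. PSMB5 fell by 0.29 ± 0.06 and PSMB7 fell by 0.17 ± 0.06 on the log2 scale, and PSMB6 had a log2 fold change of -0.15 ± 0.06 (edgeR, adjusted p = 0.0514). The call of PSMB7 was lost without DLX5 overexpression replicate 1 or 2 or without Control replicate 2. The ratio of PSMB8 to PSMB5 in FPKM was 0.150 ± 0.00858 with DLX5 and 0.0318 ± 0.000235 in control (SD, n = 3), that of PSMB9 to PSMB6 0.191 ± 0.00416 with DLX5 and 0.0207 ± 0.00500 in control, and that of PSMB10 to PSMB7 0.0317 ± 0.00134 with DLX5 and 0.0213 ± 0.00288 in control. All 3 were higher with no overlap, by factors of 4.73, 9.38 and 1.49 (two-sided exact permutation test, p = 0.1 for each, also after Benjamini-Hochberg adjustment over the 6 ratios computed).

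**Figure D3:**
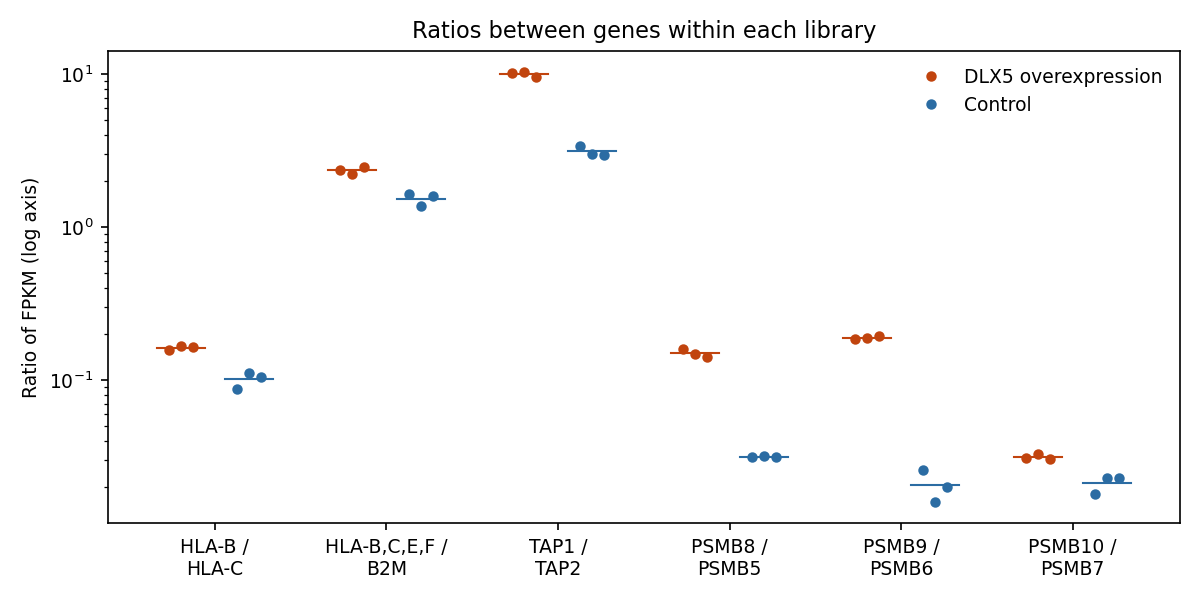
Ratios between the FPKM of genes within each library, on a log axis, with DLX5 overexpression left of Control; points are libraries and lines the means (n = 3). The groups are apart for all 6 ratios, from a factor of 1.49 for PSMB10 to PSMB7 up to 9.38 for PSMB9 to PSMB6.

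Of 16 genes of peptide supply and loading outside the members, 10 rose and 4 fell, while 2 did not pass (median log2 fold change 0.27). The aminopeptidases that trim peptides in the endoplasmic reticulum rose most. ERAP2 had 37.8 ± 1.43 CPM with DLX5 and 4.38 ± 0.794 CPM in control (SD, n = 3), a log2 fold change of 3.10 ± 0.11, and ERAP1 rose by 1.74 ± 0.08. TAPBPL, which encodes a second peptide editor, rose by 1.68 ± 0.20 and the endosomal aminopeptidase LNPEP by 0.79 ± 0.08.

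The general chaperones and cytosolic peptidases moved by little. The aminopeptidase NPEPPS rose by 0.41 ± 0.06, and the export factor BCAP31 fell by 0.45 ± 0.06. The translocon subunit SEC61A1 and the folding sensor UGGT1 did not pass, at log2 fold changes of 0.06 ± 0.06 and 0.01 ± 0.06. Named after their values were seen, calreticulin (CALR) and PDIA3, both part of the loading complex, rose by 0.30 ± 0.06 and 0.33 ± 0.06, while calnexin (CANX), a chaperone of new heavy chains, fell by 0.24 ± 0.06. The cytosolic peptidases THOP1 and TPP2, named in the same way, fell by 0.43 ± 0.07 and 0.23 ± 0.08. TPP2 lost its call without DLX5 overexpression replicate 1 or 3 or Control replicate 2.

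Among 24 regulators of class I genes, 23 could be tested, of which 14 rose, 6 fell and 3 did not pass (median log2 fold change 0.31). NF-kappaB subunits were among those that rose. NFKB2 had 115 ± 1.82 CPM with DLX5 and 53.0 ± 1.64 CPM in control (SD, n = 3), a log2 fold change of 1.12 ± 0.06, while RELB rose by 1.20 ± 0.09 and NFKB1 by 0.70 ± 0.07. The interferon factor STAT2 rose by 0.72 ± 0.07 and STAT3 by 0.93 ± 0.06. IRF1, which interferon gamma is known to induce strongly, stood at 10.9 ± 0.554 CPM with DLX5 and 10.7 ± 1.28 CPM in control (SD, n = 3), with a log2 fold change of 0.04 ± 0.12 (edgeR, adjusted p = 0.817). RFXANK and ATF1 did not pass either, at 0.04 ± 0.08 and 0.06 ± 0.11. The 6 that fell, of which those named here were picked after their values were seen, included genes of the factors through which NLRC5 acts. RFXAP fell by 0.54 ± 0.11, NFYA fell by 0.30 ± 0.07, NFYC fell by 0.29 ± 0.08 and CREB1 fell by 0.18 ± 0.07. CREB1 lost its call by DESeq2 and without DLX5 overexpression replicate 1 or 3 or Control replicate 2 or 3. Other genes of the same factors rose: RFX5 by 0.31 ± 0.06 and NFYB by 0.19 ± 0.08, also named after their values were seen. NFYB lost its call under upper-quartile or no scaling factors, by DESeq2 and with no filter on low counts. The NFYB call was also lost without DLX5 overexpression replicate 2 or 3 or Control replicate 2 or 3. CIITA, the class II coactivator, had 56 counts with DLX5 and 90 in control, a log2 fold change of -0.69 ± 0.29 (edgeR, adjusted p = 0.0422). Its call was lost by DESeq2, with no filter on low counts, with a replicate block and whichever single library was left out. MYCN, known to lower class I levels in neuroblastoma, rose by 2.45 ± 0.11 in the same libraries, at 26.6 CPM with DLX5 and 4.89 CPM in control. Its relative MYC, another of the 6 that fell, went down by 0.43 ± 0.07, at 68.5 CPM with DLX5 and 92.3 CPM in control.

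Of 15 interferon ligands, receptors and signalling genes 11 could be tested, and 7 rose, 0 fell and 4 did not pass (median log2 fold change 0.29). The ligand genes IFNB1 and IFNG, named after their values were seen, took 0 counts in all 6 libraries. The receptor gene IFNAR1 rose by 0.63 ± 0.08, IFNGR2 by 0.28 ± 0.07, IFNLR1 by 0.81 ± 0.21 and the kinase JAK1 by 0.29 ± 0.06. The feedback inhibitors SOCS1 and SOCS3 rose by 1.37 ± 0.20 and 0.49 ± 0.07. IFNGR1, JAK2 and IFNAR2 did not pass, at log2 fold changes of 0.07 ± 0.08, 0.14 ± 0.12 and 0.48 ± 0.26, though IFNAR2 did without DLX5 overexpression replicate 2.

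The polycomb repressive complex 2 is known to silence class I genes in tumours of neuroendocrine type. Of 9 genes of the complex and of the demethylases of its mark, 4 fell, 1 rose and 4 did not pass (median log2 fold change -0.09). Over all tested genes 58.6% were called in either direction, 28.8% lower and 29.8% higher. Any part of these genes in the rise of the members was not tested. SUZ12 fell by 0.46 ± 0.07, EED fell by 0.33 ± 0.08, JARID2 fell by 0.31 ± 0.07 and the methyltransferase EZH2 fell by 0.25 ± 0.06, while the demethylase KDM6B rose by 0.35 ± 0.07. EZH1, MTF2 and PHF19 did not pass, at 0.17 ± 0.08, -0.09 ± 0.08 and -0.08 ± 0.08.

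**Figure D4:**
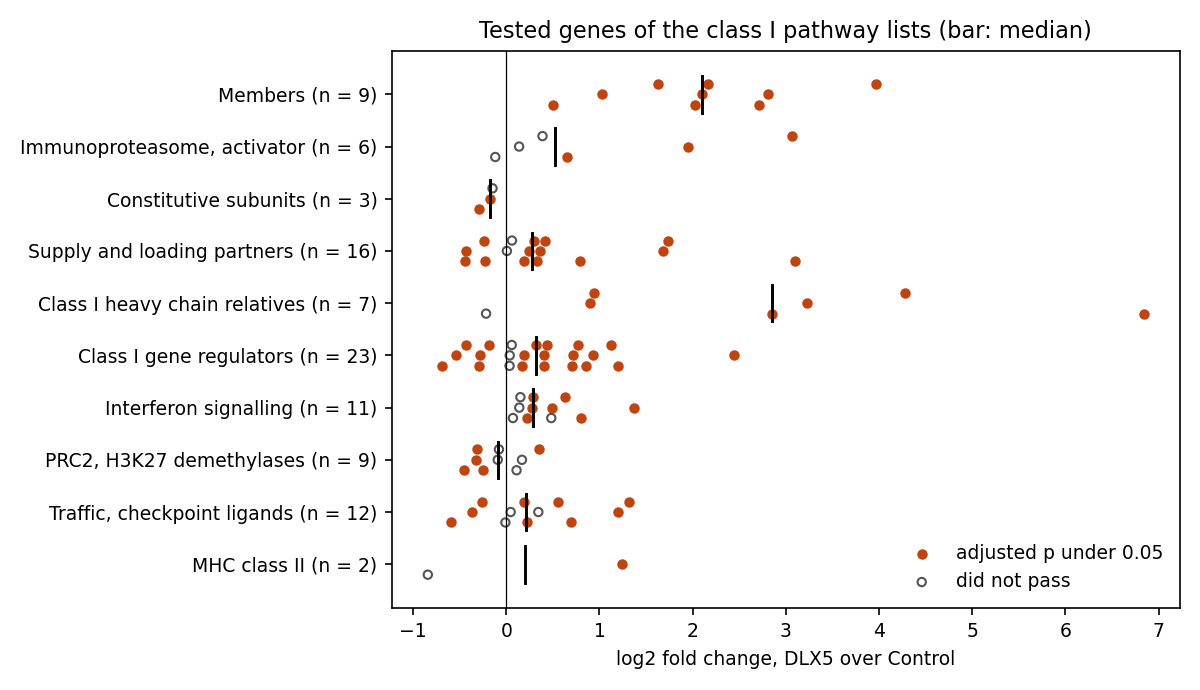
Log2 fold change, DLX5 overexpression over Control, of each tested gene of the members and of 9 lists of the pathway, filled where the adjusted p was under 0.05, with a bar at the median of each list. The members have a median of 2.11 and the regulators of 0.31; the point at 6.84 is RAET1E, whose fitted value is no bound because it had 0 control counts.

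Of 14 further class I heavy chain genes and relatives of them, 7 could be tested, of which 6 rose and 0 fell (median log2 fold change 2.85). ULBP2, a ligand of the activating receptor NKG2D named after its values were seen, did not pass, with 53 counts with DLX5 and 61 in control. MICB, a stress ligand of the same receptor, had 8.61 ± 0.103 CPM with DLX5 and 0.431 ± 0.166 CPM in control (SD, n = 3), a log2 fold change of 4.28 ± 0.24 that rests on 21 control counts. Its relative MICA rose by 2.85 ± 0.34 on 29 control counts, and by 2.45 to 3.9 when a single library was left out. MR1, which shows vitamin metabolites to innate-like T cells, rose by 3.23 ± 0.29 on 24 control counts. FCGRT, the heavy chain of the neonatal Fc receptor, rose by 0.94 ± 0.08. RAET1E, a further NKG2D ligand, had 43 counts over the DLX5 overexpression libraries and 0 in control, so it was at least 14.2-fold higher when the controls are set to 3 counts over the group, and with it at that bound the median of the list stays 2.85.

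MHC class II genes, which CIITA rather than NLRC5 controls, had few counts in both groups. Of 12 genes 8 had 0 counts in every library and 2 could be tested. HLA-DMA rose by 1.24 ± 0.34 at 1.82 ± 0.570 CPM with DLX5 and 0.770 ± 0.0724 CPM in control (SD, n = 3), and HLA-DPB1 did not pass, at a log2 fold change of -0.84 ± 0.39. CD74, the invariant chain of class II molecules, was too low to be tested and was picked out with its counts in view. It had 9 counts with DLX5 and 45 in control, a ratio of 0.198 with a 95% exact binomial interval of 0.0850 to 0.410 that covers counting error only. The summed level of the list was 2.45 to 3.49 CPM with DLX5 and 2.28 to 3.53 CPM in control, so the ranges overlapped.

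Cells of other types can carry class I transcripts, and their markers were measured beside the members. Of 10 haematopoietic markers, PTPRC, CD3E, LYZ, TYROBP and CD52 had 0 counts in the DLX5 overexpression libraries, where the members were high, and 3 could be tested, of which LCP1 and LAPTM5 rose. LCP1, which tumour cells of other origin are known to express too, made up nearly all of the summed level of 228 to 256 CPM with DLX5 and 13.4 to 15.9 CPM in control. Of the 6 endothelial markers, PECAM1 rose, with 41 counts with DLX5 and 2 in control, and the list summed to 5.81 to 6.98 CPM with DLX5 and 3.72 to 4.20 CPM in control. The 7 fibroblast markers all rose with the members, and their summed level was 6393 to 6636 CPM with DLX5 and 1287 to 1338 CPM in control, none of them at 0. Their part in the rise of the class I genes was not tested.

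Of the members, 7 lie in the MHC on chromosome 6, between the start of HLA-F and the end of TAPBP (29722775 to 33314387). The other 101 tested genes in that interval did not move as a block. There 32.7% were called higher, beside 29.8% of all tested genes, and 29.7% lower, beside 28.8%, with a median log2 fold change of -0.00. The remaining members, B2M and NLRC5, lie on chromosomes 15 and 16.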

How the data were processed

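RNA of 6 SY5Y libraries, 3 with DLX5 overexpression and 3 controls, was sequenced from NEBNext Ultra libraries, according to the labels' protocols. The deposited counts are whole numbers per gene, for which the submitters' processing notes name HISAT2 2.0.5 and featureCounts 1.5.0-p3; strand and multi-mapping settings and the read length are not given in the sources used here. Those notes name hg19, yet 58724 of the 58735 genes carry the identifier, start and end of GENCODE 29 on GRCh38, so coordinates are given as GRCh38. The FPKM values deposited by the authors equal the counts over the gene length and a library total 0.968 to 1.03 times the sum of counts, and hold the same reads.

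Counts were tested with edgeR 4.0.16 (R 4.3.3; filterByExpr, TMM, two-sided quasi-likelihood test, Benjamini-Hochberg over 17269 genes, adjusted p under 0.05), a procedure tested on simulated data. SE is the fold change over the square root of F, and SD is over 3 libraries. Ratios were compared with the exact permutation test of scipy 1.17.1, and figures drawn with matplotlib 3.10.9. Within a group, chi-square per degree of freedom between libraries was 2.23 to 5.07, above sampling noise, and none was taken as a copy. Alternatives used DESeq2 1.42.0, limma 3.58.1, other scalings, filters and thresholds, a replicate block and each library left out.

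The members and lists were chosen with earlier results of these data known. Named from each list were the 6 tested genes with the smallest adjusted p and up to 3 that did not pass at 1 CPM or more in every library; from all protein-coding genes, the 5 most like the members. A few genes are not reported here.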

Additional observations from a re-analysis of the deposited data

How the results depend on the processing

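The 9 members were called higher and 0 lower under RLE, upper-quartile and no scaling factors, DESeq2, limma-voom, both other filters on counts, log2(FPKM + 0.1), filtered log2(FPKM + 1), the 0.01 threshold and without each library in turn. Without the filter, log2(FPKM + 1) lost TAP2 (0.26, adjusted p = 0.103 by limma) and left 8; a 2-fold minimum also left 8 members, and 1944 genes higher and 895 lower over all genes. Other scalings moved the median of all genes to no lower than -0.07. No member changed sign in any setting. Replicate numbers did not pair the libraries: the correlations of deviations for same-numbered libraries were 0.05, 0.23 and -0.15 over 12798 genes, and not every library correlated best with its own number. With the numbers as a replicate block 9 members were higher, with 5208 genes higher and 5016 lower over all genes, and HLA-B kept a log2 fold change of 2.71. All 6 ratios kept their direction without each library in turn and on raw counts. Of 111 list genes tested, 15 changed call and 8 changed sign in some of 14 settings, and none of the genes called changed sign. HLA-F, with 7 control counts, NLRC5, with 244, and TAP2, with 287, are the members with the fewest.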

Other observations

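Ligands of T cell and natural killer cell receptors and factors of class I traffic were measured as a further list. Of 14 such genes 12 could be tested, with 6 higher, 3 lower and 3 that missed the threshold (median log2 fold change 0.21). NECTIN2, a ligand of natural killer and T cell receptors, had 105 ± 0.545 CPM with DLX5 and 42.0 ± 3.14 CPM in control (SD, n = 3), a log2 fold change of 1.32 ± 0.07. CD274, the ligand of the checkpoint receptor PD-1, had 19.9 ± 1.05 CPM with DLX5 and 8.66 ± 0.968 CPM in control (SD, n = 3), a log2 fold change of 1.19 ± 0.11. Its relative PDCD1LG2 rose by 0.70 ± 0.17 and CD47, which holds off phagocytosis, by 0.56 ± 0.06. The NECTIN2 relative PVR fell by 0.37 ± 0.07 and the heat shock gene HSPA1A fell by 0.60 ± 0.08, which has a near-identical copy and is uncertain. CD276 and IRF2BP2 did not pass, at log2 fold changes of 0.05 ± 0.06 and -0.01 ± 0.06.

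The 5 protein-coding genes whose centred log2(CPM + 0.1) profile over the 6 libraries lay closest to the mean profile of the members were COL3A1, MFGE8, CRADD, DKK1 and MYLK, at Euclidean distances of 0.0825, 0.0922, 0.109, 0.129 and 0.135. Their log2 fold changes were 2.01 ± 0.06, 2.09 ± 0.06, 2.09 ± 0.10, 1.96 ± 0.07 and 2.08 ± 0.06. With 2 groups this likeness rests almost wholly on the size of the difference between them. COL3A1 is also one of the fibroblast markers, at 4383 ± 77.3 CPM with DLX5 and 1089 ± 17.0 CPM in control (SD, n = 3).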
